A study of Saccharomyces cerevisiae with 232 samples.

Results

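The genes described here encode the enzymes with which budding yeast (Saccharomyces cerevisiae) makes phenylalanine, tyrosine and tryptophan. They are ARO1, ARO2, ARO3, ARO4, ARO7, ARO8, TRP2, TRP3, TRP4 and TRP5, taken by name from the deposited expression tables, so 10 of the 6692 genes listed there. The strains compared were haploid yeast of the BY4741 laboratory background in which 1 gene of tRNA modification had been deleted (57 strains, each named for the missing gene with a final D, as in elp1D), set against BY4741 itself. All strains share the BY4741 background, a mating type a strain that carries deletions in HIS3, LEU2, MET17 and URA3. Cultures were grown in rich YPD medium at 30 °C to mid-log phase and treated with cycloheximide at 100 µg/mL for 30 s before harvest. Ribosome footprints (the mRNA fragments that ribosomes protect from nuclease) were sequenced from 113 libraries of deletion strains and 14 of BY4741, with 2 libraries for each of 56 strains and 1 for kti13D. RNA depleted of rRNA was sequenced from 1 library of each of the 57 deletion strains and from 10 of BY4741. Footprints without the drug were taken once each from trm7D, elp3D, mod5D, tan1D, tyw4D and BY4741. Whether the libraries of one strain were grown as independent cultures is not given in the labels. A p-value over footprint libraries thus reflects only how far libraries differ, which may be technical. Group fits of RNA, of footprints per RNA and with 1 value per strain also take the spread between strains. In these fits each BY4741 library still counts as a sample.

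The shikimate pathway condenses erythrose 4-phosphate and phosphoenolpyruvate and ends in chorismate, from which the branches to tryptophan and to phenylalanine and tyrosine part. Aro3 and Aro4 are the isoenzymes of the first step, inhibited by phenylalanine and by tyrosine. Aro1 is a multifunctional protein that catalyses the middle steps, and Aro2 is chorismate synthase. Trp2 and Trp3 form anthranilate synthase, Trp4 is anthranilate phosphoribosyltransferase and Trp5 is tryptophan synthase. Aro7 is chorismate mutase, which commits chorismate to phenylalanine and tyrosine, and Aro8 is an aromatic aminotransferase. Many amino acid synthesis genes of yeast are activated by Gcn4, a transcription factor whose own mRNA is translated more when amino acids or charged tRNAs are short and which binds the sequence TGACTCA. The modified tRNA bases and riboses that the deleted genes make lie partly in the anticodon loop, where they affect decoding.

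The letters of the Gcn4 motif were looked for in the 500 bases before each start codon in the R64 (sacCer3) genome, on both strands (TGACTCA or its reverse complement TGAGTCA). A match was present before 4 of the 10 genes, ARO1, ARO4, TRP2 and TRP3, and before 241 of 6006 genes with such a window, 4.01%. The 4 matches are shown since these genes are among those whose footprints rose, each within 30 bases read 5′ to 3′ on the strand of the gene, with the motif in capitals:
ARO1 (chrIV:704250-704279, plus strand): tgtcatgcataTGACTCAtcccgaacatga
ARO4 (chrII:718288-718317, minus strand): ttactgcgaaaTGACTCAacgatgaaatga
TRP2 (chrV:337776-337805, plus strand): cagtgatttgcTGACTCAttacgatttttc
TRP3 (chrXI:38258-38287, minus strand): caatggctcgtTGACTCAttctaatctata
The motif starts 223 bases before the start codon of ARO1, 312 before that of ARO4, 162 before that of TRP2 and 123 before that of TRP3. A match is a description of the letters and not of binding. ARO3 and TRP4, which rose most in trm7D, had no match in this window, and neither had ARO2, ARO7, ARO8 and TRP5. Genes without a match thus rose as well.

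All 10 genes are read from a single coding exon and none overlaps another annotated gene. ARO1 (YDR127W) is at chromosome IV 704484 to 709250, ARO3 (YDR035W) at chromosome IV 521816 to 522928 and TRP4 (YDR354W) at chromosome IV 1184747 to 1185889, all on the plus strand. ARO2 (YGL148W) is at chromosome VII 226399 to 227529 and ARO8 (YGL202W) at chromosome VII 116059 to 117561 on the plus strand, while TRP5 (YGL026C) is at chromosome VII 446412 to 448535 on the minus strand. ARO4 (YBR249C) is at chromosome II 716882 to 717994, TRP3 (YKL211C) at chromosome XI 36699 to 38153 and ARO7 (YPR060C) at chromosome XVI 674861 to 675631, all on the minus strand. TRP2 (YER090W) is at chromosome V 337949 to 339472 on the plus strand. Their coding lengths run from 771 bases for ARO7 to 4767 bases for ARO1.

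The deleted gene was below every BY4741 library in 57 of 57 strains in footprints and in RNA, with a median of 1.41% of the BY4741 level and at most 26.6%, in ncs6D. The mating type alpha genes summed to at most 17.8 RPKM (reads scaled to gene length and library depth) in any footprint library. In BY4741 these alpha genes reached at most 5.06. The a-specific genes ran from 426 to 7947 RPKM in the deletion strains, against 1485 to 3533 in BY4741. MET17, which the background lacks, went against the labels in a few libraries. It had 541 and 521 RPKM in the footprint libraries of pus7D and at most 7.75 in the other 125, and in RNA 312 RPKM in pus7D, 311 in rit1D and 155 in kti11D and at most 0.814 in the other 64. The footprint libraries of rit1D and kti11D held 0 and at most 0.411 RPKM of MET17, so footprints and RNA of these strains did not match in this gene; the deleted gene itself was at 0% to 2.55% of BY4741 in the libraries with MET17 reads, and the cause was not tested. Read numbers were inferred from the RPKM values. Footprint libraries held 0.811 to 16.3 M (mega) reads (median 3.11), RNA libraries 3.77 to 14.2 M reads (median 10.4) and drug-free libraries 3.42 to 7.38 M reads. No member had fewer than 66 footprint reads or 187 RNA reads in a library. The authors' deposited ratio table divides the strains by 3 different sets of BY4741 libraries, and 9 members differed between BY4741 of set 2 and of set 1, beside 51.8% of all genes, so the strains were also compared with the set as a term.

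In BY4741 the footprint levels of the 10 genes, in RPKM, fell into a broad order. ARO4 had 521 ± 34.3 (SD, n = 14; lowest 454, median 519, highest 588), ARO2 469 ± 51.1 (398, 449, 560), ARO8 395 ± 24.6 (363, 393, 439) and TRP5 336 ± 25.6 (290, 333, 389). TRP2 had 180 ± 11.4 (159, 182, 197), ARO3 176 ± 13.5 (152, 179, 201), ARO1 114 ± 8.17 (101, 112, 125), TRP3 104 ± 4.71 (95.3, 106, 111), ARO7 95 ± 8.42 (78.9, 96.5, 106) and TRP4 51.7 ± 4.24 (44.4, 51.3, 59.2). The ranges of ARO4 and ARO2, of ARO2 and ARO8 and of ARO8 and TRP5 overlapped. Within each of the 14 libraries, however, the first gene of each of these pairs was the higher. The ranges of TRP2 and ARO3, of ARO1 and TRP3 and of TRP3 and ARO7 also overlapped. The order within these pairs changed between libraries, so they were not separated. TRP4 lay below all others. RNA followed a similar order, from 317 ± 4.45 RPKM for ARO4 to 46.7 ± 2.29 RPKM for TRP4 (SD, n = 10). The first-step enzyme Aro4 thus had 521 footprint RPKM against 176 for its isoenzyme Aro3. RPKM are relative to each library's total, so fewer molecules of an mRNA per cell and more of all others cannot be told apart.

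Across the 56 strains with 2 footprint libraries, 173 of 560 pairs of a gene and a strain rose and 32 fell relative to BY4741 (limma with Benjamini-Hochberg adjustment over 4281 genes in each comparison, adjusted p under 0.05). Over all genes and strains the same test called 10.2% higher and 6.17% lower. Of the 32 falls, 20 were of ARO7. In 21 strains at least 5 members rose, in 23 strains no member was called, and sit4D alone had at least 5 that fell. The 23 strains without a called member included those lacking the dihydrouridine synthases Dus1, Dus3 and Dus4, and in these 23 strains the log2 changes of the 10 genes lay between -0.29 (TRP4 in tyw4D) and 0.24 (ARO2 in tad1D). With the set of the libraries as a term the counts were 158 higher and 24 lower, beside 8.17% and 3.98% of all genes, and 176 pairs were called in both fits, of 204 without the term and 182 with it. Without kti13D, the shallowest library (trm112D, library 2) and both libraries of pus7D and dus2D, 163 pairs rose and 28 fell in 54 strains. The share of all genes without these libraries is not given here.

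**Figure D1:**
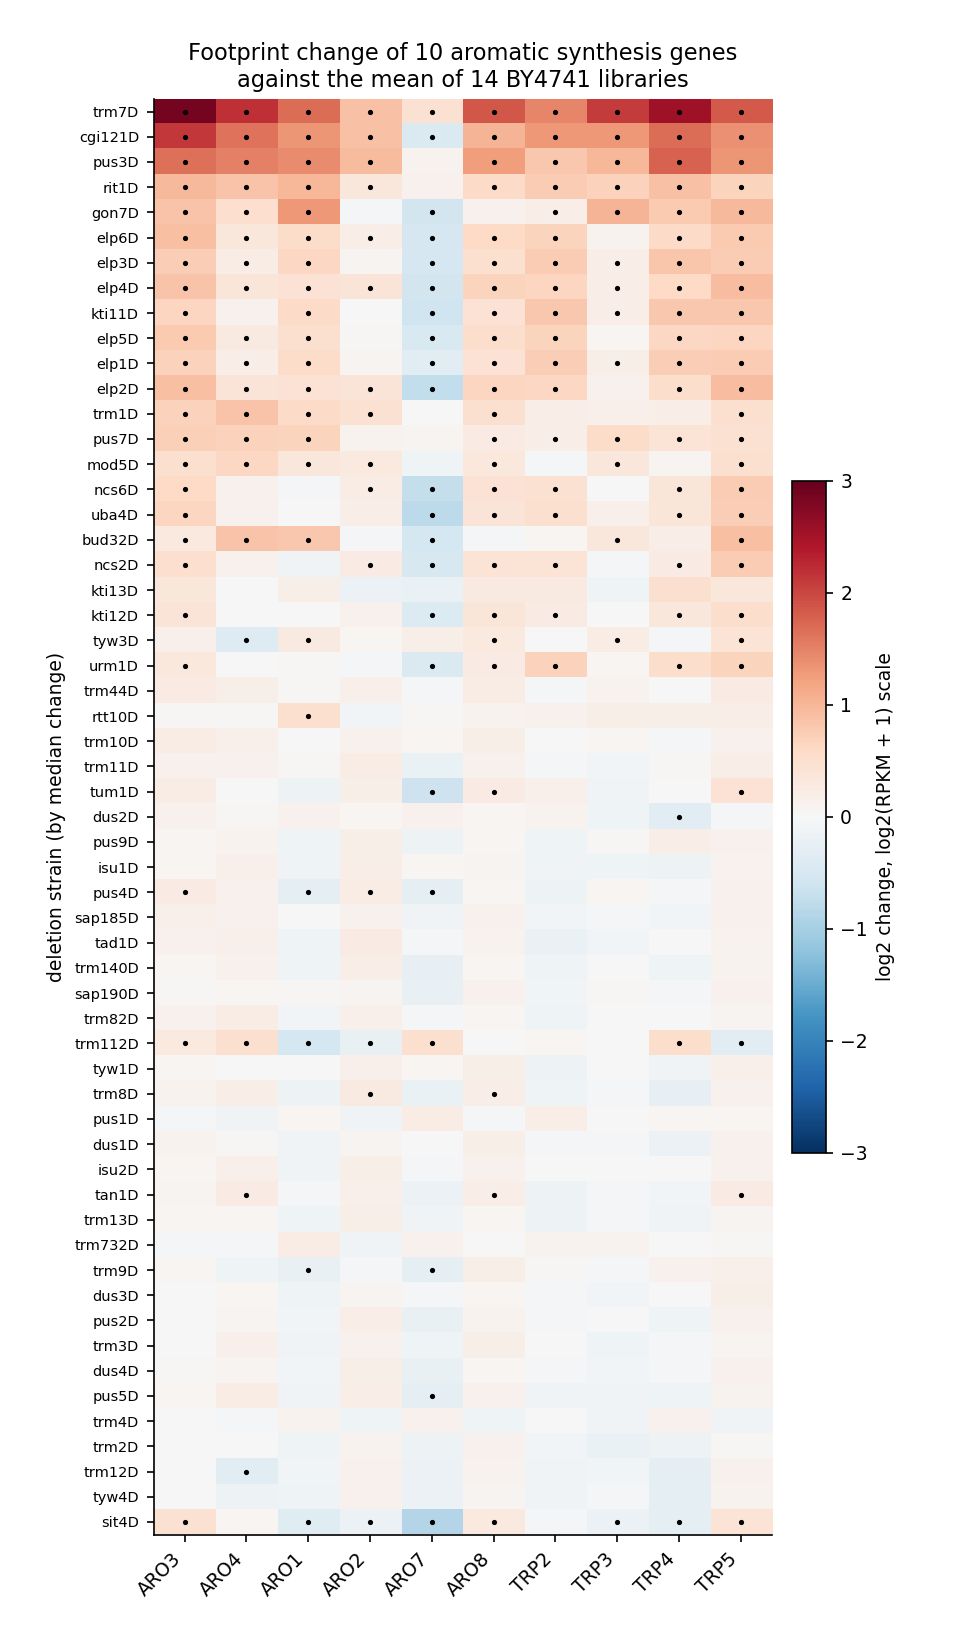
Footprint log2 change against BY4741 (colour) of the 10 genes (columns) in 57 deletion strains (rows, ordered by the median change); a dot marks adjusted p under 0.05, and kti13D, with 1 library, has no test. Nearly all columns are red in trm7D, cgi121D, pus3D and rit1D, while the ARO7 column is blue in the Elongator and thiolation strains.

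The 10 genes rose furthest in trm7D, which lacks a tRNA ribose methyltransferase that acts on the anticodon loop. All 10 were higher there, beside 30.6% of all genes, with a median of 1.85 on the log2 scale and a median of 0.11 over all genes. ARO3 had 1307 and 1268 footprint RPKM in trm7D, against 152 to 201 in BY4741, a log2 change of 2.87 ± 0.0874 (SE, adjusted p = 1.81e-43). Both trm7D libraries lay above every BY4741 library for each of the 10 genes, and for 27.5% of all genes. Of the tryptophan branch, TRP4 had 302 and 308 RPKM in trm7D against a BY4741 mean of 51.7 (log2 change 2.54 ± 0.0987). TRP3 had 443 and 453 against 104 (log2 change 2.10 ± 0.0677), TRP5 1150 and 1244 against 336 (log2 change 1.83 ± 0.0723) and TRP2 480 and 517 against 180 (log2 change 1.46 ± 0.0672). Of the shared pathway, ARO4 had 2338 and 2452 RPKM in trm7D against 521 in BY4741 (log2 change 2.20 ± 0.0717), and ARO1 had 345 and 385 against 114 (log2 change 1.68 ± 0.0791). ARO8 had 1415 and 1462 against 395 (log2 change 1.86 ± 0.0665), and ARO2 moved less, with 821 and 903 against 469 (log2 change 0.88 ± 0.08). The smallest rise was that of chorismate mutase, ARO7, which had 134 and 127 RPKM in trm7D, against 95 in BY4741 (log2 change 0.46 ± 0.0826, adjusted p = 3.21e-06). The ratio of the 2 first-step isoenzymes, ARO3 over ARO4, was 0.538 in trm7D and 0.338 in BY4741. Across the deletion strains this ratio was lowest in bud32D, at 0.231, where ARO4 averaged 935 RPKM and ARO3 216.

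The rise in trm7D was also seen without cycloheximide, in 1 library each with no replicate check. ARO3 had 1485 RPKM in trm7D against 187 in BY4741, 7.95-fold, TRP4 325 against 57.8, 5.63-fold, and ARO4 2808 against 570, 4.93-fold. ARO7 had 127 RPKM in trm7D against 97.8 in BY4741, 1.3-fold, the smallest of the 10 folds. In elp3D without the drug ARO3 had 308 RPKM, 1.65-fold, and TRP5 594, 1.62-fold against 367 in BY4741, whereas ARO7 had 67.5 RPKM, 0.69-fold. In mod5D without the drug ARO1 had 171 RPKM, 1.54-fold, and ARO4 831, 1.46-fold. ARO7 was thus the gene with the smallest fold of the 10 in trm7D and in elp3D in these libraries as well.

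In cgi121D, which lacks a subunit of the KEOPS complex that makes threonylcarbamoyladenosine beside the anticodon, 9 members rose and ARO7 fell, beside 18.1% of all genes higher. ARO3 had 765 and 785 RPKM in cgi121D, against 176 in BY4741 (log2 change 2.13 ± 0.0874, adjusted p = 5.5e-35). TRP4 had 158 and 175 against 51.7 (log2 change 1.67 ± 0.0987), and ARO4 1592 and 1627 against 521 (log2 change 1.63 ± 0.0717). The other 6 that rose had log2 changes from 0.87 for ARO2 to 1.36 for TRP5. ARO7 had 73.9 and 65.4 RPKM in cgi121D against 95 in BY4741, where the lowest library held 78.9 (log2 change -0.44 ± 0.0826, adjusted p = 1.23e-05).

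In pus3D, which lacks a pseudouridine synthase of the anticodon arm, 9 members rose, beside 19.2% of all genes. Here TRP4 moved furthest, with 187 and 172 RPKM in pus3D against 51.7 in BY4741 (log2 change 1.78 ± 0.0987, adjusted p = 1.25e-26). ARO3 had 588 and 520 against 176 (log2 change 1.65 ± 0.0874), and ARO2 reached its highest strain mean, 897 RPKM, against 469 in BY4741. ARO7 had 110 and 93.1 RPKM in pus3D against 95 in BY4741, a log2 change of 0.10 ± 0.0826 that did not pass the test (adjusted p = 0.373).

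In rit1D, which lacks the enzyme that modifies the initiator tRNA, 9 members rose, beside 3.39% of all genes. ARO1 had 221 and 233 RPKM in rit1D against 114 in BY4741 (log2 change 0.99 ± 0.0791, adjusted p = 1.25e-17) and ARO3 331 and 361 against 176 (log2 change 0.97 ± 0.0874). The other 7 had log2 changes from 0.34 for ARO2 to 0.87 for TRP4. ARO7, at 105 and 104 RPKM in rit1D against 95 in BY4741, did not pass the test (log2 change 0.14, adjusted p = 0.351). This was a strain in which few other genes were called, unlike trm7D, cgi121D and pus3D.

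**Figure D2:**
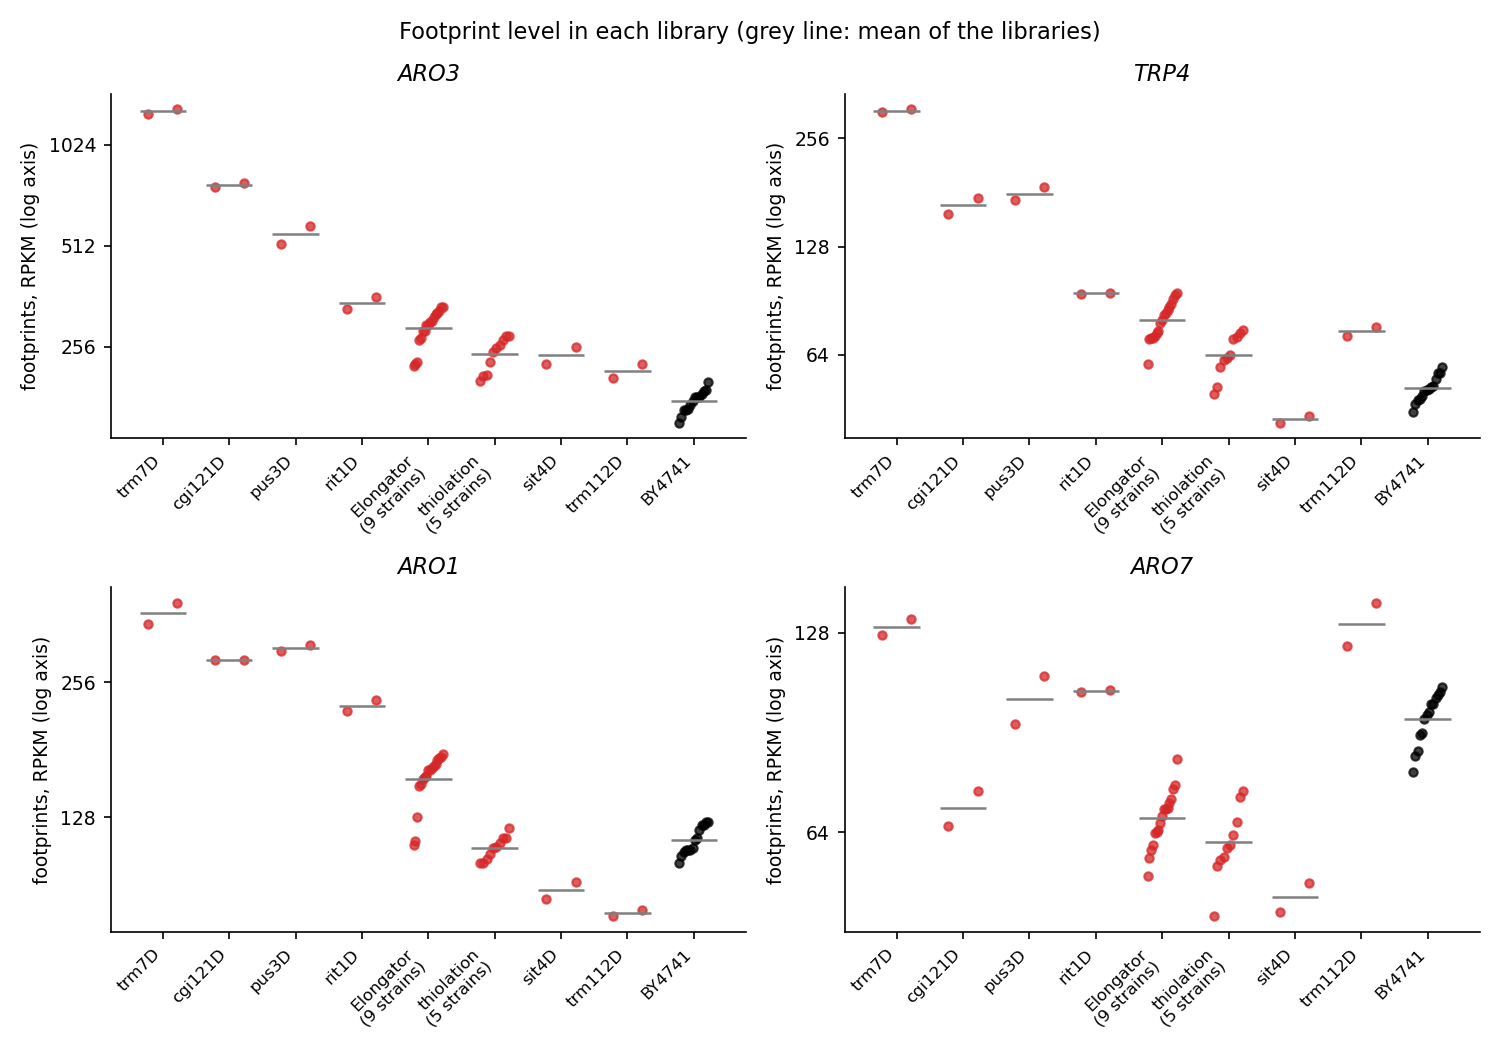
Footprint level (RPKM, log axis) of ARO3, TRP4, ARO1 and ARO7 in each library of selected deletion strains and of BY4741. A grey line in each column marks the mean of the libraries in that column. ARO3 reaches 1307 RPKM in trm7D against at most 201 in BY4741, and ARO7 lies below the BY4741 mean in the Elongator, thiolation and sit4D libraries.

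Smaller rises were found in 3 strains that lack other single enzymes. In pus7D, which lacks a pseudouridine synthase, 8 members rose beside 3.08% of all genes, up to a log2 change of 0.72 for ARO3, with 277 and 305 RPKM in pus7D against 176 in BY4741. In pus7D 6 rose when the set was a term, and TRP2 (adjusted p = 0.492) and TRP4 (adjusted p = 0.0692) were no longer called. Over all strains in that fit 8.17% of all genes rose. Both libraries labelled pus7D held MET17 reads, as given above. In mod5D, which lacks the isopentenyl transferase, 7 members rose beside 7.62% of all genes, up to 0.62 for ARO4, with 794 and 801 RPKM in mod5D against 521 in BY4741. In trm1D, which lacks the dimethylguanosine methyltransferase, 6 members rose beside 5.23% of all genes, up to 0.85 for ARO4, with 925 and 950 RPKM in trm1D against 521 in BY4741. The set term left 6 members higher in mod5D, without ARO2 (adjusted p = 0.656), and 7 in trm1D, with TRP2 added (adjusted p = 0.0048). In these 3 strains ARO4 or ARO3 led and ARO7 was not called.

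ARO7 differed from the other 9 genes. It fell in 20 of 56 strains and rose in 2, trm112D and trm7D, where it had 142 and 122 RPKM and 134 and 127 RPKM, against 78.9 to 106 in BY4741. The lowest values were those of sit4D (48.5 and 53.6 RPKM, log2 change -0.88 ± 0.0826, adjusted p = 3.7e-15), uba4D (47.8 and 61.2 RPKM, log2 change -0.79) and elp2D (54.9 and 58.5 RPKM, log2 change -0.73), against a BY4741 mean of 95. The 20 strains held all 8 Elongator strains that were tested, the 5 thiolation strains and the 3 KEOPS strains. The 4 others were sit4D, pus4D, pus5D and trm9D. With the set as a term ARO7 fell in 17 of 55 strains and rose in 3. The falls in pus4D (adjusted p = 0.458), pus5D (adjusted p = 0.928) and trm9D (adjusted p = 0.0928) were then no longer called. Of the 4 others only sit4D was left.

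Over the 57 strains and BY4741, the Pearson correlation of ARO7 with the mean of the other 9 genes was -0.04, while for the other 9 it ran from 0.69 for ARO2 to 0.96 for ARO3 (58 points, log2 footprint means, as a description; the points differ in depth and in set). The 5 other genes whose pattern over these 58 points was most like the mean of the 10 were HOM2 (r = 0.977), HIS7 (0.949), ILV1 (0.949), HIS3 (0.947) and GGC1 (0.947). HIS3 is among the genes that the background carries as a deletion, and its reads come from what remains of it. GCN4 footprints ranked 8 of 4271 genes by the same measure (r = 0.932, against a median of 0.056 over all other genes). By gene, the correlation with GCN4 footprints ran from 0.60 for ARO2 to 0.95 for TRP5 among the 9, and was -0.21 for ARO7. GCN4 itself rose by 4.91 on the log2 scale in trm7D, 4.34 in pus3D, 4.10 in cgi121D and 2.69 in rit1D. In trm112D it changed by -0.76 (adjusted p = 0.0074; -0.52 and adjusted p = 0.0725 under the set term), and in sit4D its change of 0.37 did not pass the test (adjusted p = 0.237).

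**Figure D3:**
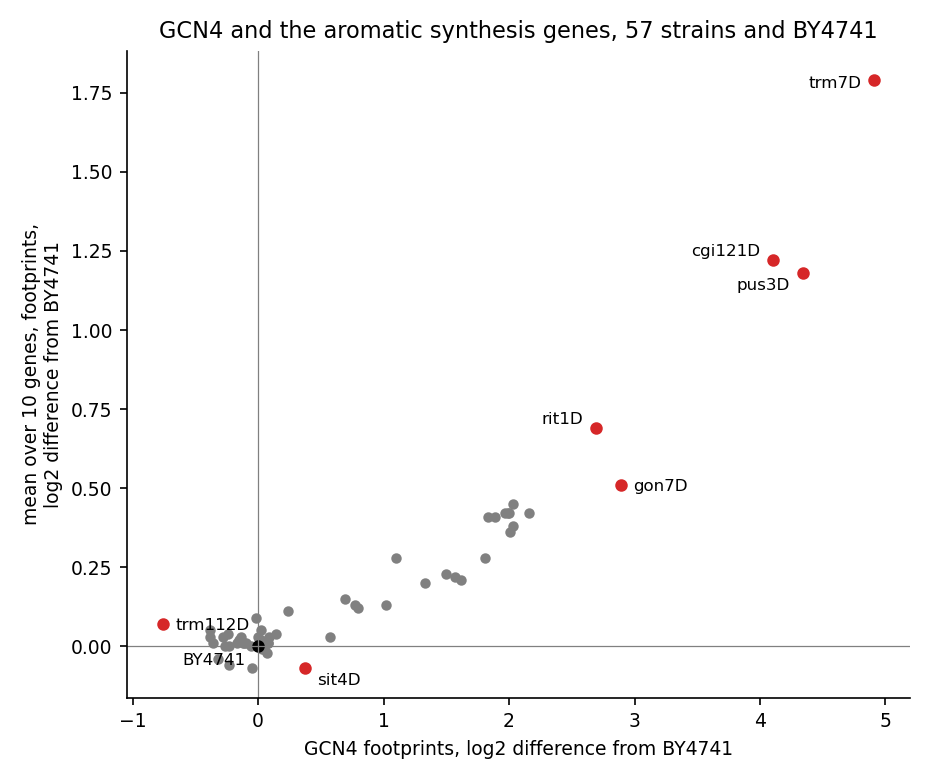
Mean log2 footprint difference from BY4741 of the 10 genes (vertical axis) against that of GCN4 (horizontal axis), 1 point per deletion strain plus BY4741 at 0. On the vertical axis trm7D, cgi121D, pus3D and rit1D are highest, at 1.79, 1.22, 1.18 and 0.69, with 4.91, 4.10, 4.34 and 2.69 for GCN4; gon7D lies at 0.51 with 2.89 for GCN4.

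A pair of strains stood apart in direction. In sit4D, which lacks a protein phosphatase that acts with Elongator, ARO7, ARO1, TRP4, ARO2 and TRP3 fell by 0.88, 0.36, 0.27, 0.18 and 0.17 on the log2 scale, beside 23.7% of all genes lower. ARO3, TRP5 and ARO8 rose by 0.46, 0.42 and 0.29 in sit4D, beside 26.9% of all genes higher. With the set as a term 3 rose and 3 fell in sit4D, and TRP3 (adjusted p = 0.0733) and TRP4 (adjusted p = 0.111) were no longer called. In trm112D, which lacks a partner of several methyltransferases, TRP4, ARO4, ARO7 and ARO3 rose by 0.52, 0.48, 0.47 and 0.30 beside 57% of all genes higher, while ARO1, TRP5 and ARO2 fell by 0.53, 0.35 and 0.22 beside 13.9% lower. The median of all genes was 0.35 in trm112D, and with each library centred on its median no member rose and 6 fell, ARO1 by 0.88, TRP5 by 0.71, ARO2 by 0.57, TRP3 by 0.36, ARO8 by 0.35 and TRP2 by 0.30, beside 27.2% of all genes higher and 31% lower. ARO1, TRP5 and ARO2 thus fell under both scalings, while the rises of TRP4, ARO4, ARO7 and ARO3 were not called after centring, at 0.17, 0.13, 0.12 and -0.05. With the set as a term and no centring, TRP2 also rose in trm112D, by 0.15 (adjusted p = 0.0474). Of all strain means, trm112D also held the lowest of ARO1 (78.1 RPKM), ARO2 (400 RPKM) and TRP5 (262 RPKM), against BY4741 means of 114, 469 and 336 RPKM. The lowest strain mean of ARO7 was that of sit4D (51 RPKM). Those of ARO3, ARO4 and ARO8 were in trm732D (169 RPKM), tyw3D (403 RPKM) and trm4D (362 RPKM). Those of TRP2, TRP3 and TRP4 were in tad1D (157 RPKM), trm2D (91.2 RPKM) and dus2D (40.7 RPKM).

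Elongator and its helper proteins (elp1D to elp6D, kti11D, kti12D and kti13D, 9 strains) add side chains to the wobble uridine of tRNAs, and the thiolation proteins (urm1D, uba4D, ncs2D, ncs6D and tum1D, 5 strains) add sulfur to the same base. Over 17 Elongator footprint libraries 9 members rose and ARO7 fell, beside 36.4% of all genes higher and 18.1% lower. That fit takes the spread between libraries. With 1 value per strain, chosen after seeing the data, 7 rose and ARO7 fell, beside 25.5% of all genes higher, and ARO2 and TRP3 were no longer called (adjusted p = 0.291 and 0.236). Median centring also removed those 2. The tryptophan gene TRP5 moved furthest: its strain means ran from 423 to 641 RPKM (median 572) in the 9 Elongator strains, against library values of 290 to 389 (median 333) in BY4741, a log2 change of 0.72 ± 0.0663 with 1 value per strain (adjusted p = 4.38e-10). ARO3 ran from 224 to 330 RPKM (median 291) against 152 to 201 (median 179), log2 change 0.70 ± 0.121, adjusted p = 2.92e-05. For TRP5, ARO3, TRP2, TRP4 and ARO8 every Elongator strain mean lay above every BY4741 library, as it did for 5.16% of all genes. TRP4 rose by 0.61, TRP2 by 0.60, ARO8 by 0.49, ARO1 by 0.43 and ARO4 by 0.21, while ARO7 fell by 0.48, with strain means from 56.7 to 82.5 RPKM (median 66.8) against 78.9 to 106 (median 96.5) in BY4741. For each of the 9 members other than ARO7 the lowest of the Elongator strains was kti13D or kti12D.

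In the 5 thiolation strains 6 members rose and ARO7 fell over 10 libraries, beside 28.3% of all genes higher and 20.3% lower. With 1 value per strain 4 rose (TRP5, TRP2, ARO3 and ARO8) and ARO7 fell, beside 14% of all genes higher; TRP4 (adjusted p = 0.0795) and ARO2 (adjusted p = 0.327) were lost. TRP5 strain means ran from 456 to 571 RPKM (median 560) in the thiolation strains against 290 to 389 (median 333) in BY4741 (log2 change 0.67 ± 0.0808, adjusted p = 4.31e-07 with 1 value per strain). ARO7 ran from 54.5 to 69.4 RPKM (median 61) against 78.9 to 106 (median 96.5), with no overlap (log2 change -0.61 ± 0.0737, adjusted p = 4.31e-07). ARO1, at 102 to 116 RPKM (median 110) against 101 to 125 (median 112), had a log2 change of -0.05, and ARO4 and TRP3 did not pass the test either. The ARO2 change of 0.15 was 0.01 with the set as a term. With median centring 5 members rose and 2 fell (ARO7, and ARO1 by 0.11), and with quantile normalization 6 rose and 2 fell. The shares of all genes under these 2 scalings are not given here.

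Over the 8 single Elongator strains together 20.2% of all pairs of a gene and a strain rose, and over the 5 thiolation strains 15.6%. In the single Elongator strains 5 (kti12D) to 9 (elp4D) members rose, and in the single thiolation strains 2 (tum1D) to 6 (ncs2D and ncs6D). Under the set term these ranges were 5 to 7 and 2 to 5, beside 8.17% of all genes higher over all strains in that fit. Elongator and thiolation strains share the BY4741 libraries. Their difference, tested directly over libraries, was above 0 for 8 members, beside 17.2% of all genes higher in the Elongator strains. With the set as a term it was called for 7, beside 350 of 4281 genes higher in the Elongator strains. The 7 were without ARO7 (adjusted p = 0.198) and TRP3 (adjusted p = 0.0942) and with TRP5 (adjusted p = 0.0337). With 1 value per strain it was called for ARO1 only (log2 difference 0.48 ± 0.0897, adjusted p = 0.00495), beside 0.42% of all genes. ARO1 had strain means of 112 to 175 RPKM in the Elongator strains (median 160) against 102 to 116 in the thiolation strains (median 110).

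The KEOPS strains cgi121D, gon7D and bud32D differed among themselves. In gon7D 7 members rose and ARO7 fell, beside 49.7% of all genes higher, and in bud32D 5 rose and ARO7 fell, beside 44.6% of all genes higher (6 rose with the set as a term, with TRP4 added, adjusted p = 0.0206). The 2 libraries of gon7D also differed: ARO3 had 438 and 231 RPKM in gon7D, against 152 to 201 in BY4741, and ARO4 had 958 and 575 in gon7D against 454 to 588. The median of all genes was 0.26 in gon7D and 0.21 in bud32D, and with median centring ARO1, ARO4 and TRP5 still rose in both, while ARO2, ARO7 and ARO8 fell in both. Over the 3 strains 9 members rose and ARO7 fell, beside 49.9% of all genes higher and 24.1% lower, and with 1 value per strain 8 rose, beside 39.1%. The median of all genes over the 3 strains was 0.17 in footprints and 0.19 in RNA; it was also 0.15 in elp5D, 0.14 in elp6D and 0.14 in kti13D. ARO1 had 199 RPKM in bud32D, 284 in gon7D and 287 in cgi121D, against 101 to 125 in BY4741 (log2 change 1.14 ± 0.102, adjusted p = 1.46e-10). The group rested on cgi121D for several genes. Without it the ARO3 change was 0.57 instead of 1.09, TRP2 0.12 instead of 0.51, TRP4 0.49 instead of 0.88, ARO8 0.04 instead of 0.37 (adjusted p = 0.476) and ARO2 -0.05 instead of 0.26 (adjusted p = 0.431). All 6 a-specific mating genes fell over the KEOPS strains as a group, with a median of -1.41. In cgi121D alone 2 of the 6 fell, with a median of -0.05. The part of these mating genes in the result was not tested.

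**Figure D4:**
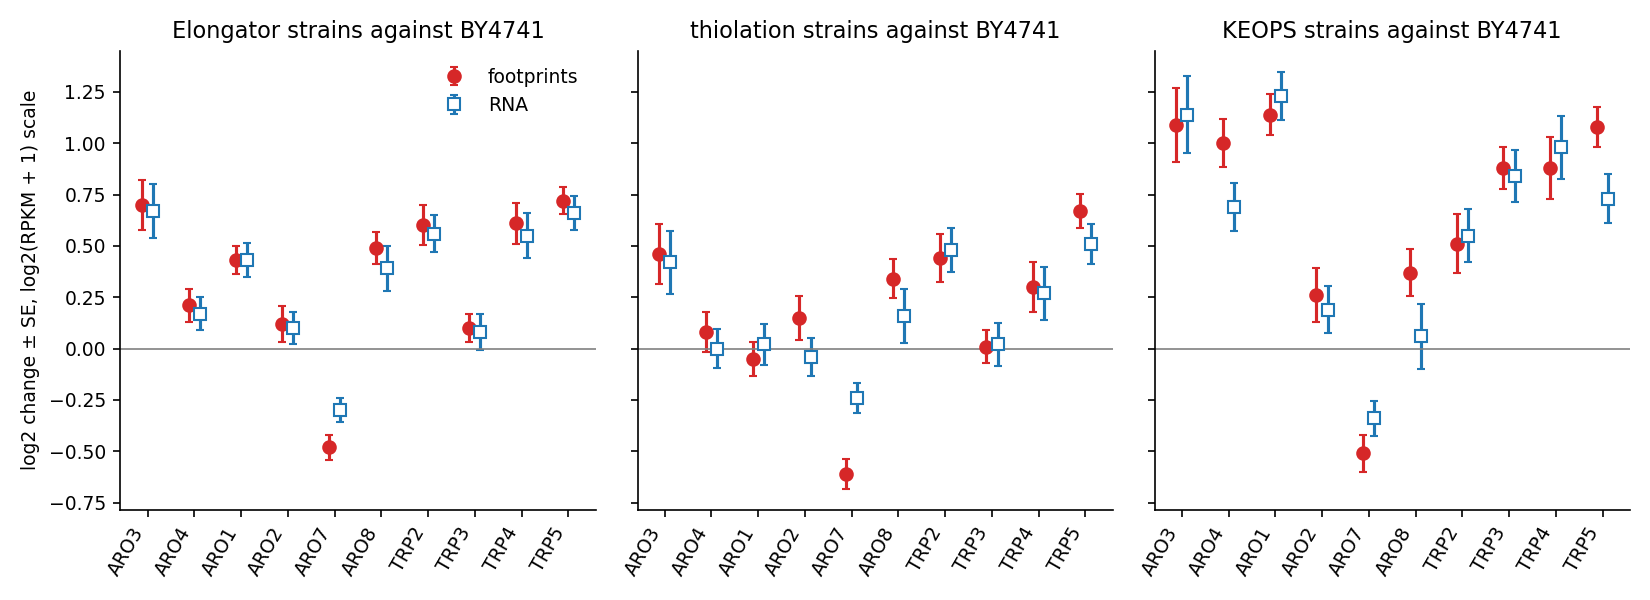
Log2 change against BY4741 of the 10 genes in the Elongator, thiolation and KEOPS strains, in footprints (1 value per strain) and in RNA, with bars for ± 1 SE. ARO7 is below 0 in all 3 groups and in both assays, and TRP5 is at 0.72, 0.67 and 1.08 in footprints.

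RNA was then compared in the same groups. In the Elongator strains 6 members rose (ARO3 by 0.67, TRP5 by 0.66, TRP2 by 0.56, TRP4 by 0.55, ARO1 by 0.43 and ARO8 by 0.39) and ARO7 fell by 0.30, beside 17.8% of all genes higher and 11.1% lower. Leaving out kti11D, whose RNA library held MET17 reads, kept 6 higher and 1 lower. TRP5 RNA ran from 224 to 334 RPKM (median 312) in the Elongator strains against 166 to 196 (median 186) in BY4741, with no overlap. In the thiolation strains TRP5 rose by 0.51 and TRP2 by 0.48 and ARO7 fell by 0.24, beside 14% of all genes higher and 6.18% lower. In the KEOPS strains 7 members rose, up to 1.23 for ARO1, and ARO7 fell by 0.34, beside 48.4% higher and 17.3% lower. ARO8 RNA in the KEOPS strains had 163 RPKM in bud32D, 176 in gon7D and 421 in cgi121D, against 193 to 250 in BY4741, so the group's change of 0.06 became -0.38 without cgi121D (adjusted p = 0.00114).

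GCN4, for comparison, rose by 1.75 in footprints and by 0.24 in RNA in the Elongator strains.

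Single strains have 1 RNA library and no test, so a gene was counted where it lay outside the 10 BY4741 libraries and differed by at least 1.5-fold. By this rule all members except ARO7 were higher in trm7D, cgi121D and pus3D, beside 4.23%, 5.63% and 3.74% of all genes. In gon7D 4 were higher (ARO1, ARO3, TRP3 and TRP4), beside 28.3%. Also 4 were higher in each of elp2D, elp4D, elp6D, kti11D and pus7D, beside 1.69%, 1.73%, 1.99%, 2.82% and 0.855% of all genes. The RNA libraries of kti11D and pus7D held MET17 reads. ARO3 RNA had 622 RPKM in trm7D, 475 in cgi121D and 341 in pus3D, against 105 to 129 in BY4741. ARO7 RNA had 98.5, 67.5 and 84.7 RPKM in the same 3 strains, against 77.2 to 95.3 in BY4741.

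The change of footprints per RNA (translational efficiency) was called for no member in any of the 3 groups (limma, adjusted p under 0.05), while 0.42%, 0% and 9.54% of 4288 genes were called in the Elongator, thiolation and KEOPS strains. At an unadjusted p under 0.05 it was ARO7 in the Elongator strains (log2 change -0.17) and in the thiolation strains (-0.37), and TRP5 in the KEOPS strains (0.35); 398, 375 and 1010 of all genes passed at that level. Without cgi121D, TRP5 (0.44) and ARO8 (0.42) passed the adjusted threshold in the KEOPS strains. Strain by strain, the median over the 10 genes of the footprint change less the RNA change was 0.38 in trm7D, from 0.01 for ARO2 to 0.88 for TRP4, and 0.30 in rit1D, whose RNA library carried MET17 reads. In cgi121D it was 0.10 and in pus3D 0.12.

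**Figure D5:**
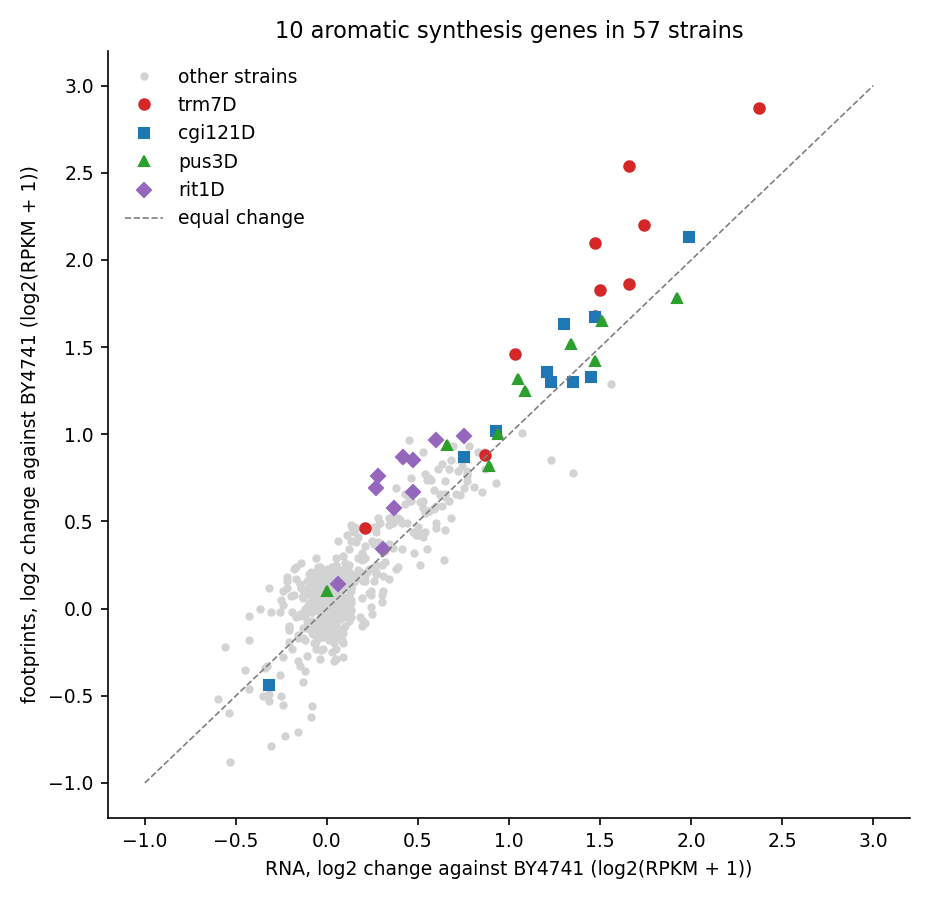
Footprint log2 change (vertical axis) against RNA log2 change (horizontal axis), relative to BY4741, for the 10 genes in the deletion strains, 1 point per gene and strain. The trm7D points lie above the diagonal, by 0.38 at the median.

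AAA, CAA and GAA codons are read by tRNAs with the wobble uridine that Elongator and the thiolation proteins modify. Their share was 13.7% of codons in ARO7, the highest of the 10 (percentile 78 of 5938 genes). It was 8.51% in ARO2, the lowest, against a median of 11.3% over all genes. ARO3 and TRP2 had 12.2% each, ARO4 11.6%, ARO1 and ARO8 10.8% each, TRP3 10.3%, TRP5 10.2% and TRP4 8.95%. Whether this share bears on the changes was not tested.

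Other genes of the pathway, from lists chosen with these results known, are given for comparison. TRP1, TYR1 and PHA2, the remaining genes of the branches, rose in the Elongator strains by 0.23, 0.15 and 0.15 (the set term ended the call of PHA2, adjusted p = 0.0617), and in trm7D TYR1 (0.50) and PHA2 (0.62) rose while TRP1 had -0.23 and did not pass the test. The breakdown genes ARO9 and ARO10, an aminotransferase and a decarboxylase of aromatic amino acids, rose far more: by 3.01 and 3.60 in the Elongator strains, 2.06 and 2.36 in the thiolation strains and 3.48 and 4.53 in trm7D. They also rose in sit4D (3.34 and 4.22) and in trm112D (2.49 and 3.37), where GCN4 was not called higher, and neither was called in rit1D. Lysine synthesis genes rose 7 of 7 in the Elongator strains (median 1.02), and histidine synthesis genes 6 of 6 (median 0.26), or 5 of 6 with the set as a term (without HIS6, adjusted p = 0.0687). The median was 0.46 for the 10 genes and 0.06 over all genes, of which 36.4% were called higher. Of the genes that supply erythrose 4-phosphate, 1 of 6 rose (ZWF1, by 0.46) and 4 fell in the Elongator strains, TAL1 by 0.72.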

How the data were processed

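Footprints and RNA of 57 deletion strains and BY4741 were compared for 10 genes. The deposited values are RPKM per gene, made by the authors with TopHat2 2.0.12, SAMtools and HOMER 4.6 on sacCer3, per the submitters' processing notes, which give no order of steps. The authors' deposited ratio table holds each strain over BY4741 as a linear ratio; here it served only to find which BY4741 libraries belonged to a strain's set. Depth was inferred as the value at which RPKM times coding length and depth came closest to whole reads. With it, 94.8% to 98.1% of low footprint values were whole within 0.1, a share that the choice of depth itself favours. RPKM was tested, not counts. Low members are thus limited by counting error (66 footprint reads at the least). Chemical mapping of ribose methylation (32 libraries) was not used here.

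Values were taken as log2(RPKM + 1), and genes averaging 10 RPKM or more were kept. Across all of them limma 3.58.1 in R 4.3.3 was fitted with a trend, Benjamini-Hochberg adjustment and a threshold of 0.05. The main footprint fit took all cycloheximide-treated footprint libraries. The RNA and translational efficiency fits took only BY4741 and the Elongator, thiolation and KEOPS strains. For translational efficiency each of these deletion strains had 1 footprint value, the mean of its libraries. Fold changes are on the log2(RPKM + 1) scale. Groups of strains were tested over libraries and, as an alternative added later, with 1 footprint value per strain. The fitting code was tested on simulated data. No pair of same-strain footprint libraries agreed within sampling noise (147 pairs, smallest chi-square per gene 1.22), and no pair of BY4741 RNA libraries (45 pairs, 1.92). All 10 members are named, with other genes from lists of the pathway and its neighbours; strains are named where at least 5 members were called one way, where a member was called and at least 2-fold changed, or where a member was lowest or highest. Genes like the members are the 5 of highest correlation. The members and lists were chosen with earlier results of these data known. Alternatives were the pseudocount, the filter, median centring, quantile normalization, the set as a term, a replicate block and leaving out libraries or strains. A count under an alternative with no share of all genes beside it cannot be set against the share of the main fit.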

Additional observations from a re-analysis of the deposited data

Results flagged for a closer look

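In the thiolation strains, 1 strain stood apart from the other 4 in 2 of 50 tests made on groups of strains and libraries, and chance alone flags about 1 in 20. TRP5 RNA was 221 RPKM in tum1D, the lowest, while the nearest strain had 267 and the highest 282. ARO2 footprints were 444 RPKM in urm1D, the lowest, while the nearest strain had 525 and the highest 552.

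The footprint change differed between the Elongator and the thiolation strains, by the test of the difference over libraries, for 8 members. Over all genes 17.2% were called higher in the Elongator strains by that test. The log2 difference was 0.48 for ARO1, 0.31 for TRP4, 0.24 for ARO3, 0.16 for TRP2, 0.14 for ARO7, 0.14 for ARO8, 0.13 for ARO4 and 0.09 for TRP3. With the set as a term ARO7 (adjusted p = 0.198) and TRP3 (adjusted p = 0.0942) did not pass. With 1 value per strain ARO1 alone passed (adjusted p = 0.00495, limma). For ARO7 the positive difference means a smaller fall in the Elongator strains (68.1 ± 7.43 RPKM, SD over 9 strains) than in the thiolation strains (62 ± 6.27 RPKM, SD over 5 strains).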

How the results depend on the processing

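The count of members that differed between Elongator and thiolation strains was 8 as reported, 1 with 1 value per strain and 5 with median centring. Without library 1 of every strain it was 4, and leaving out libraries or strains gave 2 to 8, 135 to 217 for the 205 called pairs of a gene and a single strain, and 0 to 2 for translational efficiency in the KEOPS strains. TRP3 in the Elongator footprints turned to -0.01 with quantile normalization. Without cgi121D, ARO2 in the KEOPS footprints turned to -0.05 and ARO8 in the KEOPS RNA to -0.38; leaving out each strain in turn gave -0.05 to 0.42 for ARO2 and -0.38 to 0.31 for ARO8. Of the alternatives for called values of single genes in a group, 1467 kept the call and 65 lost it, 12 of them with 1 value per strain, and none with another pseudocount or no filter. The deviations of same-numbered libraries had a median correlation of 0.014 over 1540 pairs of strains, from -0.387 to 0.304, with 186 pairs above 0.1. Pairing within a set was not tested. With a replicate block the count over single strains was 228. The group counts were then 9, 6, 10 and 8 for the Elongator, thiolation and KEOPS strains and the difference. That fit kept only libraries 1 and 2 of BY4741, both of set 1, so the block and the smaller reference cannot be told apart. No member fell below 66 footprint reads, so counting error limits the smallest log2 changes of TRP4 and ARO7 in the shallowest libraries.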
